A study of Mus musculus with 10 samples.

Results

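The CHD and ISWI remodellers are ATPases that slide, space or evict nucleosomes, and their transcripts were compared between P3 whole brains of *Arid1b* heterozygous (HT) and wild-type (WT) mice. The 10 genes described here are *Chd1* to *Chd9* and *Smarca5*, chosen by gene symbol and not by a measured value, out of 18444 genes in the deposited table. All 10 were among the 17020 genes with a mean normalised read count of at least 10, which were the genes tested. The 5 HT and 5 WT mice were male C57BL/6N pups at postnatal day 3, each giving 1 mRNA library, and the labels give no drug or other treatment. HT mice carry a CRISPR/Cas9 edit of the fifth exon in 1 *Arid1b* allele that truncates the protein, in every cell of the body, while the other allele is wild type. The pups came from HT fathers and WT mothers, and which pups were littermates is not given in the labels. ARID1B is a subunit of the BAF complex, another ATP-dependent remodeller, so the comparison asks whether loss of 1 allele of a BAF subunit goes along with other transcript levels of the remodellers outside BAF.

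CHD proteins join a pair of chromodomains, which read histone tails, to a SNF2-type ATPase motor. CHD1 and CHD2 (subfamily I) work at transcribed genes. CHD3, CHD4 and CHD5 (subfamily II) are alternative motors of the NuRD complex, which couples remodelling to histone deacetylation, with CHD4 prominent in neural progenitors and CHD5 in neurons. CHD6 to CHD9 form subfamily III. Among them CHD7 is the protein mutated in CHARGE syndrome and acts in granule neuron progenitors of the cerebellum, and CHD8 is a strongly implicated autism risk protein. SMARCA5 (also SNF2H) is an ISWI ATPase that spaces nucleosomes in complexes such as ACF, CHRAC and RSF and is needed by dividing neural progenitors, and SMARCA1 (SNF2L) is its paralog.

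The motors are related in sequence, and the longest stretches that pairs of these genes share letter for letter show how far short reads can tell them apart. The runs below were read from the longest coding transcript of each gene in GENCODE M21 (GRCm38) and lie in coding sequence of both genes. Capitals mark the 8 bases GACTGGAA, which 2 of these runs hold, within the part that encodes the ATPase motor.
Chd3 and Chd4: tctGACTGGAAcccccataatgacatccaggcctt
Chd4 and Chd5: atcttctcccagatgaccaagatgttggac
Chd3 and Chd5: tccaccatcatcaactgggaacgggagtt
Chd7 and Chd8: atctttgattcaGACTGGAAtcc
Smarca5 and Smarca1: ataaaaaatgaaaaatctaag
The *Chd3* and *Chd4* run of 35 bases crosses an exon junction in both genes, from exon 22 of *Chd3* (chr11:69353891-69354091, minus strand, intron included) and from exon 23 of *Chd4* (chr6:125113560-125113904, plus strand, intron included). The 23-base run of *Chd7* and *Chd8* lies inside exon 17 of *Chd7* (chr4:8839582-8839604, plus strand) and exon 18 of *Chd8* (chr14:52215899-52215921, minus strand). The 21-base run of *Smarca5* lies in its exon 7 (chr8:80726211-80726231, minus strand). In these transcripts, 1 of the 45 pairs of the 10 genes shared a run of 31 bases or more. Counted over all annotated transcripts of each gene, the words of 31 bases shared with another of the 10 genes numbered 8 in *Chd3* and in *Chd4*, 6 in *Chd9*, 4 in *Smarca5* and 2 in *Chd8*, and 0 in the other 5. Identity to genes outside the family was larger in a few cases. *Smarca5* shared 33.3% of its 7761 distinct 31-base words with other annotated genes, most of them with the processed pseudogene *Gm13135*, and *Chd2* shared 18.0% of 14647, nearly all with the overlapping transcript *1810026B05Rik*. The other 8 genes shared between 0% (*Chd1*) and 3.25% (*Chd9*). Reads from shared words can be split between genes by the quantification, so the values of *Smarca5* and *Chd2* are less certain than those of the others. Exons of *Chd2*, *Chd5*, *Chd8* and *Chd9* also overlap an annotated transcript on the opposite strand. The library kit marks strand, and whether the quantification used it is not given in the sources used here.

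Values are normalised read counts, which are estimated reads divided by a size factor per library, and they summed to between 27243506 and 29032442 per library. *Arid1b*, the edited gene, averaged 2101 ± 343 in the 5 HT and 3335 ± 203 in the 5 WT libraries (mean ± SD), which gave a log2 fold change of -0.68 (two-sided exact permutation p = 0.00794, the smallest that 5 against 5 libraries can give), with a limma adjusted p of 0.390 with all libraries and 2.52e-04 without HT 4. HT 4 stood apart from the other 9 libraries, at 53.9 on the first principal component, where the others lay between -23.4 and 9.81. In HT 4 long transcripts read low, with a median log2 deviation from the gene mean of -0.34 among the 1701 longest of the tested genes (6571 bases or more), which hold all 9 *Chd* genes, and of 0.27 among the 1701 shortest. The markers chosen for neurons, astrocytes and radial glia, oligodendrocyte lineage, microglia, dividing cells, forebrain, choroid plexus and erythroid cells all had a mean of at least 10, as did 5 of the 6 cerebellar granule markers, as a whole brain should hold. Summed forebrain markers were 15456 in HT 4 and 20415 to 24619 elsewhere, and summed cerebellar granule markers were highest in HT 4 (9802, against 5760 to 8827). Choroid plexus markers did not overlap between groups (sums of 6286 to 9139 in HT and 9640 to 13236 in WT, two-sided exact permutation p = 0.00794). The part of transcript length, library HT 4 and tissue makeup in the results below was not tested except where a value without HT 4 is given.

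To ask which remodeller motors are most abundant as transcripts in the P3 brain, normalised counts were divided by transcript length. *Chd3* led with 2756 ± 111 normalised counts per kilobase (mean ± SD, n = 10 libraries), 2.51 times the level of *Chd4*, and was higher than *Chd4* in 10 of 10 libraries. *Chd4* (1104 ± 75.1) and *Chd5* (1084 ± 36.0) could not be ordered, since *Chd4* was the higher in 4 of 10 libraries. *Chd8* followed at 539 ± 59.8, and was higher than *Smarca5* (340 ± 22.6) in 10 of 10 libraries. *Smarca5* exceeded *Chd6* (306 ± 53.0) in 7 of 10 libraries, and *Chd6* exceeded *Chd9* (250.5 ± 21.4) in 9 of 10. *Chd9* and *Chd2* (248 ± 26.2) were not separable, with *Chd9* higher in 6 of 10 libraries. The lowest levels were those of *Chd1* (130.3 ± 17.0) and *Chd7* (125 ± 13.5), with *Chd1* higher in 6 of 10 libraries, or in 9 of 10 when the median length of the coding transcripts was used instead. Of the summed per-kilobase level of the 10 genes, the NuRD motors of subfamily II took 72.1% ± 1.41 in HT and 71.6% ± 1.31 in WT (mean ± SD over 5 libraries). Subfamily III took 17.6% ± 1.47 and 17.8% ± 0.835, subfamily I took 5.56% ± 0.394 and 5.44% ± 0.456, and *Smarca5* took 4.79% ± 0.360 and 5.10% ± 0.291. The shares differed between the groups by no more than about the spread within them.

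**Figure D1:**
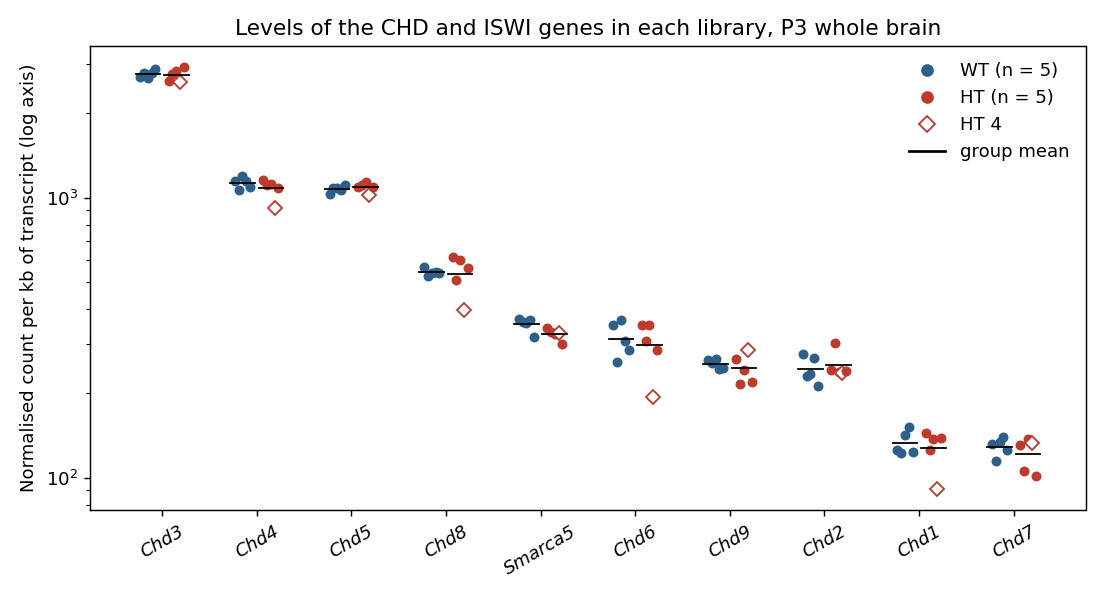
Transcript level of each remodeller gene in normalised counts per kilobase of transcript (log axis), with 1 point per library for HT (n = 5) and WT (n = 5), HT 4 as an open diamond and a bar at each group mean. *Chd3* stands at 2756 per kilobase, *Chd4* and *Chd5* next at 1104 and 1084, and *Chd1* and *Chd7* lowest at 130.3 and 125.

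None of the 10 genes passed the threshold in the comparison of HT with WT (limma, Benjamini-Hochberg adjusted p of 1.00 for each), and neither did any other gene, so the background is 0% of 17020 genes at an adjusted p under 0.05. At an unadjusted p under 0.05, 1 of the 10 genes passed (*Smarca5*), against a background of 3.41% of all genes tested. No member had HT and WT libraries that did not overlap, against a background of 0.629%. The log2 fold changes ran from -0.12 (*Smarca5*) to 0.04 (*Chd2*), with a median of -0.064 beside -0.0074 over all genes tested. The HT mean was the lower for 8 of the 10 genes, where 53.6% of all genes tested had a lower mean in HT. That direction rested on HT 4. Without it, 4 of the 10 genes had a lower mean in HT, against 50.4% of all genes, and the median was 0.022. With HT 4 kept and the trend on transcript length and GC content removed from each library, 7 of the 10 were lower and the median was -0.032. Without HT 4 an unadjusted p under 0.05 was again that of *Smarca5* alone among the 10 (background 8.4%), and no adjusted p was under 0.05 (background 0.0118%). The intervals bound the size of any change: with all libraries, *Chd5* in HT lay between 0.951 and 1.08 times the WT level and *Chd3* between 0.924 and 1.06 times (95% confidence), while the widest interval, that of *Chd6*, ran from 0.743 to 1.18 times. Such p-values do not show that the levels were equal. In whole tissue, fewer cells that express a gene and less RNA of it per cell cannot be told apart.

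**Figure D2:**
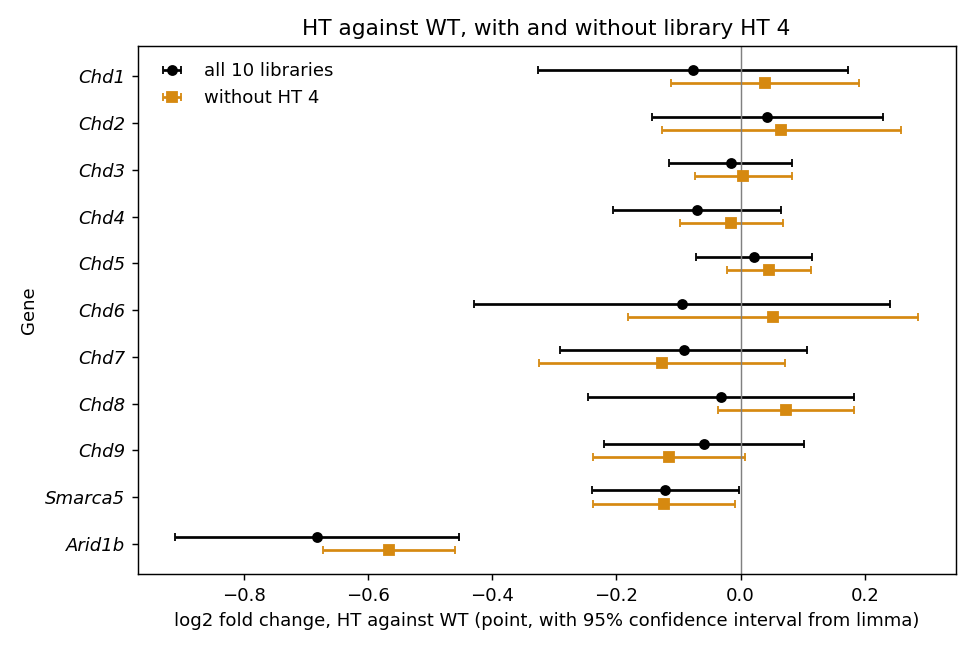
Log2 fold change of HT against WT for each remodeller gene and, in the bottom row, *Arid1b*. Points with 95% confidence intervals from limma are given with all 10 libraries and without HT 4. Of the remodeller genes, with all libraries only the *Smarca5* interval (-0.24 to -0.0024) lies below 0. That of *Arid1b* runs from -0.91 to -0.45. Without HT 4 *Chd1*, *Chd3*, *Chd6* and *Chd8* move from below to above 0.

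*Smarca5*, the ISWI ATPase, had the smallest unadjusted p of the 10 genes. Its normalised read counts were 2089, 2022, 1999, 2002 and 1837 in HT 1 to HT 5, and 2258, 2201, 2187, 2231 and 1949 in WT 1 to WT 5. Apart from WT 5, which lay below 4 of the 5 HT libraries, every WT library was above every HT library. The HT mean of 1990 ± 92.6 was 91.9% of the WT mean of 2165 ± 124 (SD over 5 libraries), a log2 fold change of -0.12 (95% interval -0.24 to -0.0024). The unadjusted limma p was 0.0462 and the adjusted p 1.00, and the two-sided exact permutation p was 0.0397. Without HT 4 the log2 fold change was -0.12 (two-sided exact permutation p = 0.0635, limma adjusted p = 0.565). After a trend on transcript length and GC content was removed from each library it was -0.07 with HT 4 and -0.15 without it (limma adjusted p = 0.999 and 0.455), and in the latter setting the groups did not overlap and the unadjusted p was under 0.05, as held for 2.74% and 7.95% of all genes tested. With each of the 10 libraries left out in turn, its log2 fold change ran from -0.16 (without WT 5, where the groups no longer overlapped, as for 1.63% of all genes) to -0.09 (without HT 5), and leaving out any of HT 2, HT 3, HT 5 and WT 1 to WT 4 brought the unadjusted limma p above 0.05. The summed markers of dividing cells (*Mki67*, *Top2a*, *Ccnb1*, *Cdk1*, *Birc5*) were lower in HT for 5 of 5 markers, at 2712 to 4692 in HT and 3577 to 5216 in WT. The sums gave a two-sided exact permutation p of 0.238 between the groups. HT 5 and WT 5 held the lowest sums of those markers (2712 and 3577) as they held the lowest *Smarca5* counts, and WT 1 held the highest of both. Other libraries went the other way. HT 4 had a higher sum (4692) than WT 2 (3883) and WT 4 (4383) but a lower *Smarca5* count (2002, against 2201 and 2231). Whether the share of dividing cells plays a part in the *Smarca5* values was not tested. The paralog *Smarca1* had counts of 2164 ± 96.4 in HT and 2106 ± 105 in WT, a log2 fold change of 0.04 (exact permutation p = 0.373, limma adjusted p = 1.00).

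*Chd8*, *Chd1*, *Chd6* and *Chd4* were set apart by library HT 4. *Chd8* had normalised read counts of 5213, 4307, 5115, 3374 and 4791 in HT 1 to HT 5, and 4805, 4451, 4572, 4620 and 4579 in WT 1 to WT 5. The WT libraries lay close together (4605 ± 128), and the HT libraries were spread on both sides of them (4560 ± 751), with HT 1 and HT 3 above every WT library and HT 2 and HT 4 below. The coefficient of variation of *Chd8* was 16.5% in HT and 2.78% in WT, and 8.41% in HT without HT 4. With HT 4 its log2 fold change was -0.03 (95% interval -0.25 to 0.18, exact permutation p = 0.897, limma adjusted p = 1.00), and without HT 4 it was 0.07 (exact permutation p = 0.254, limma adjusted p = 0.747), so its direction turned on that library. Without HT 4 the interval placed *Chd8* in HT between 0.975 and 1.13 times the WT level.

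For *Chd6*, too, the direction turned on HT 4. Its counts were 3686, 3232, 3696, 2043 and 3004 in HT 1 to HT 5, and 3694, 2711, 3843, 3239 and 3000 in WT 1 to WT 5. HT 4 was the lowest library, and the other 4 HT libraries lay within the WT range. The log2 fold change was -0.09 with HT 4 and 0.05 without it (exact permutation p = 0.635 and 0.722, limma adjusted p = 1.00 and 0.932). *Chd1*, which lies 10.4 Mb from *Arid1b* on chromosome 17, had counts of 1141, 997, 1087, 721 and 1097 in HT 1 to HT 5, and 996, 968, 1123, 1204 and 980 in WT 1 to WT 5. Again HT 4 alone lay below the WT libraries, and the log2 fold change moved from -0.08 to 0.04 without it (exact permutation p = 0.706 and 0.611, limma adjusted p = 1.00 and 0.923). *Chd4* was lower in HT 4 (6168) than in any other library (7154 to 8013). The difference in *Chd4* was -0.07 on the log2 scale with HT 4 and -0.01 without it (exact permutation p = 0.357 and 0.698, limma adjusted p = 1.00 and 0.952).

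HT 4 was the lowest of the 10 libraries for 6 of the 10 genes (*Chd1*, *Chd3*, *Chd4*, *Chd5*, *Chd6*, *Chd8*), where it was the lowest for 27.5% of all genes tested, whatever their length. It was the highest for 1 gene, *Chd9*, against 24.7% of all genes. The log2 deviation of HT 4 from the gene mean was -0.63 for *Chd6*, -0.50 for *Chd1* and -0.43 for *Chd8*. Of the 1701 longest genes, 69.1% lay below -0.2 in HT 4, as did *Chd6*, *Chd1*, *Chd8* and *Chd4* of the 10. The lower and upper quartile of those longest genes were -0.50 and -0.15. *Chd4* lay inside that range at -0.26, while *Chd3* and *Chd5* (-0.09 each) and *Chd2* (-0.07) were closer to 0. *Chd7* (0.09) and *Chd9* (0.20), though among the longest transcripts of the family at 10216 and 12008 bases, were above their gene means in HT 4. With the length and GC trend removed, the deviation of HT 4 was -0.30 for *Chd6*, -0.18 for *Chd1*, -0.16 for *Chd8*, 0.38 for *Chd7* and 0.57 for *Chd9*.

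**Figure D3:**
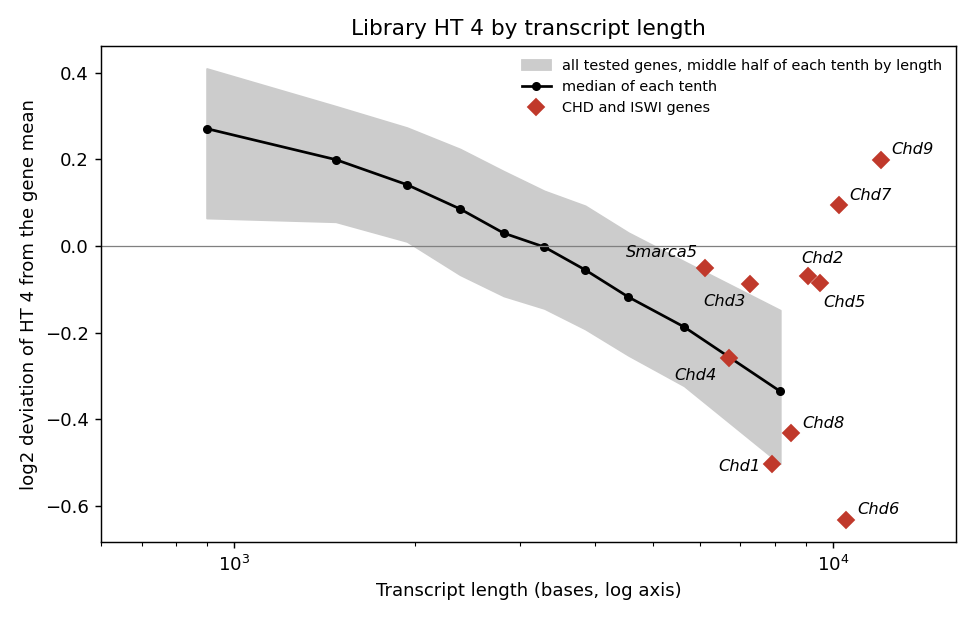
Log2 deviation of library HT 4 from the gene mean against transcript length in bases (log axis), with the median (line) and the range from lower to upper quartile (grey) of all tested genes in 10 bins by length, and the 10 remodeller genes as diamonds. The median falls from 0.27 in the bin of the shortest genes to -0.34 in that of the longest, and *Chd7* and *Chd9* lie above 0 among the longest transcripts.

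*Chd9* and *Chd7*, both of subfamily III, had their lowest counts in HT 2 and HT 5 and not in HT 4. *Chd9* had counts of 3182, 2600, 2920, 3441 and 2632 in HT 1 to HT 5, and 3161, 3077, 3174, 2939 and 2953 in WT 1 to WT 5. HT 2, HT 5 and HT 3 were below every WT library, and HT 4 and HT 1 above, so the HT range enclosed the WT range. The log2 fold change of *Chd9* was -0.06 with HT 4 included (95% interval -0.22 to 0.10, exact permutation p = 0.452, limma adjusted p = 1.00) and -0.12 without it (exact permutation p = 0.159, limma adjusted p = 0.615). With the length and GC trend removed and HT 4 left out it was -0.18 (limma adjusted p = 0.459). The unadjusted p was then under 0.05, as for 7.95% of all genes tested. The remaining libraries met without overlap, as for 2.74% of all genes. The nearest HT and WT libraries (HT 1 and WT 4) both lay at -0.09 from the trend-removed mean of all 10 libraries.

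*Chd7* had counts of 1339, 1081, 1406, 1360 and 1034 in HT 1 to HT 5, and 1347, 1170, 1371, 1425 and 1278 in WT 1 to WT 5. HT 2 and HT 5 lay below every WT library, and the other 3 HT libraries within the WT range. The log2 fold change of *Chd7* was -0.09 (95% interval -0.29 to 0.11, exact permutation p = 0.373, limma adjusted p = 1.00) and -0.13 without HT 4 (exact permutation p = 0.278, limma adjusted p = 0.757). Without HT 4 and with the trend removed it was -0.17 (limma adjusted p = 0.597), with an unadjusted p under 0.05, as for 7.95% of all genes tested. HT 5 and HT 2 were also the libraries with the lowest summed cerebellar granule markers, at 5760 and 6366, where the WT libraries ran from 7281 to 8827. WT 2 had the lowest sum (7281) and the lowest *Chd7* count of the WT libraries. Other libraries did not follow that order. HT 3 had a sum of 7407 with a *Chd7* count of 1406, and HT 4 had the highest sum (9802) with 1360. The sums gave a two-sided exact permutation p of 0.476 between the groups. Whether the amount of cerebellum in a sample plays a part in the *Chd7* values was not tested.

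**Figure D4:**
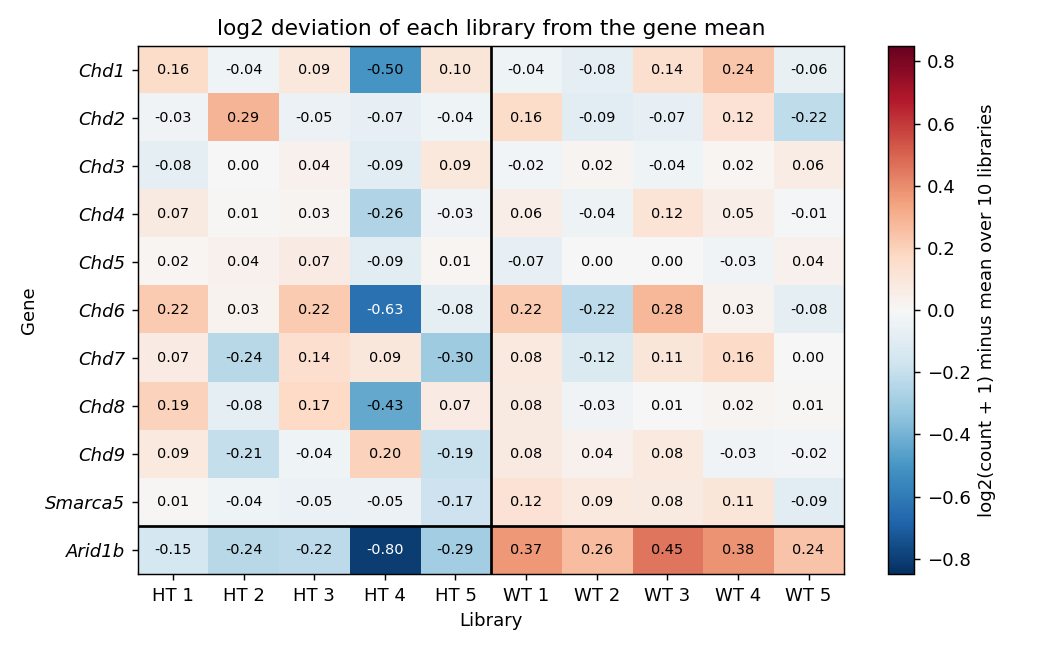
Log2 deviation of each remodeller gene and, in the bottom row, *Arid1b* from its mean over the 10 libraries. There is 1 column per library (HT 1 to HT 5, WT 1 to WT 5) and 1 row per gene. Among the remodeller genes HT 4 holds the lowest values (-0.63 for *Chd6*, -0.50 for *Chd1*), and *Chd7* and *Chd9* are low in HT 2 and HT 5. *Arid1b* stands at -0.80 in HT 4.

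*Chd2* was the gene with the largest upward log2 fold change of the 10. Its counts were 2203, 2750, 2171, 2141 and 2185 in HT 1 to HT 5, and 2503, 2103, 2138, 2440 and 1929 in WT 1 to WT 5. HT 2 was the highest of all 10 libraries, and the other 4 HT libraries lay together inside the WT range. The log2 fold change of 0.04 (95% interval -0.14 to 0.23, exact permutation p = 0.651, limma adjusted p = 1.00) became -0.02 without HT 2 and -0.0062 without WT 5. The gene *1810026B05Rik*, also named *Chaserr*, is a long non-coding RNA known to hold *Chd2* expression down. It overlaps the start of *Chd2* on the same strand (chr7:73539203-73558395, minus strand, GRCm38) and was looked at after its values were seen. Its counts were 562, 547, 569, 668 and 556 in HT 1 to HT 5, and 606, 591, 624, 631 and 582 in WT 1 to WT 5. HT 2, the library with the most *Chd2*, had the least *1810026B05Rik*. The other libraries did not keep that order. WT 1 and WT 4, next in *Chd2* (2503 and 2440), had 606 and 631 of *1810026B05Rik*. HT 4, with the most *1810026B05Rik* (668), had 2141 of *Chd2*, and WT 5, with the least *Chd2* (1929), had 582. The log2 fold change of *1810026B05Rik* over the 10 libraries was -0.07 (exact permutation p = 0.270, limma adjusted p = 1.00). Without HT 4, which held its highest count, every HT library was below every WT library. The groups did not overlap for 2.96% of all genes, in either direction. The log2 fold change was then -0.12 (limma adjusted p = 0.598). Since the gene was picked with its values seen, that subset gives a description and not a test. The pair share 2598 of the 31-base words of *Chd2*, so reads divided between them can move both counts, and that was not tested.

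**Figure D5:**
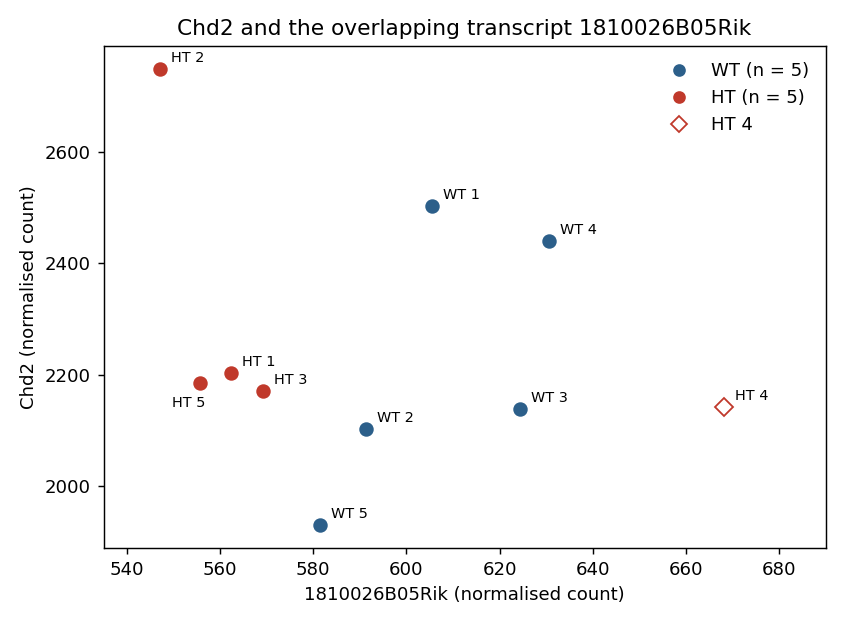
Normalised read count of *Chd2* against that of the overlapping transcript *1810026B05Rik*, with 1 point per library (HT, WT, and HT 4 as an open diamond). HT 2 has the most *Chd2* (2750) and the least *1810026B05Rik* (547), while WT 1 and WT 4, next in *Chd2* (2503 and 2440), have 606 and 631. Apart from HT 4 (668) the HT libraries lie left of the WT libraries.

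The NuRD motors were also compared as proportions. Of the summed per-kilobase level of *Chd3*, *Chd4* and *Chd5*, the share of *Chd3* was 55.8% ± 1.55 in HT and 55.7% ± 1.03 in WT (SD over 5 libraries). The share of *Chd4* was 21.9% ± 1.33 in HT and 22.7% ± 1.13 in WT, and that of *Chd5* was 22.2% ± 0.456 and 21.6% ± 0.360. The shares of *Chd3* and *Chd4* differed by less than their SD. The *Chd5* share was 22.6%, 22.3%, 22.4%, 22.5% and 21.4% in HT 1 to HT 5, and 21.2%, 21.9%, 21.9%, 21.3% and 21.9% in WT 1 to WT 5. Thus 4 of the 5 HT libraries lay above every WT library, a difference that was not tested. *Chd3* counts ran from 18804 to 21265 in HT and from 19489 to 20913 in WT (log2 fold change -0.02, exact permutation p = 0.714, limma adjusted p = 1.00). *Chd5* counts ran from 9681 to 10800 in HT and from 9814 to 10545 in WT (log2 fold change 0.02, exact permutation p = 0.524, limma adjusted p = 1.00). For both genes the lowest library was HT 4, and with it the groups overlapped over most of their range. Without HT 4, *Chd5* counts ran from 10382 to 10800 in HT, and WT 5 (10545) was the only WT library within that range. The log2 fold change of *Chd5* was then 0.05 (exact permutation p = 0.0952, limma adjusted p = 0.747). That of *Chd3* was 0.0044 (exact permutation p = 0.881, limma adjusted p = 0.987).

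The partners of these motors and the other SNF2-type ATPases were read from the same fit. None of the 12 NuRD partners passed an adjusted or unadjusted p of 0.05 with all libraries, and their log2 fold changes, each below 0, ran from -0.15 to -0.00015 with a median of -0.044. Without HT 4, 10 of the 12 were below 0. Of all genes tested, 53.6% had a lower mean in HT with all libraries and 50.4% without HT 4. *Cdk2ap1*, a small NuRD subunit, had the smallest p of the list, with counts of 1612 to 2197 in HT and 1915 to 2033 in WT and a log2 fold change of -0.15 (exact permutation p = 0.111, limma adjusted p = 1.00). Without HT 4 its log2 fold change was -0.23 (limma adjusted p = 0.222), with an unadjusted p under 0.05, as for 8.4% of all genes tested. *Mbd2*, the methyl-CpG binding subunit, had a log2 fold change of -0.09 (exact permutation p = 0.151, limma adjusted p = 1.00). Of the 10 ISWI partners and paralog, 3 were above 0 and 7 below, and none passed. *Baz1a*, the ACF1 partner of SMARCA5, had 185 ± 51.9 in HT and 138 ± 20.5 in WT, a log2 fold change of 0.39 (exact permutation p = 0.103, limma adjusted p = 1.00). *Cecr2*, another ISWI partner, had a log2 fold change of -0.36 (exact permutation p = 0.214, limma adjusted p = 1.00).

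Of the 4 partners that link CHD4 to ADNP and heterochromatin protein HP1, 1 was above 0 and 3 below. *Adnp* had 4757 ± 662 in HT and 5149 ± 284 in WT (log2 fold change -0.12, exact permutation p = 0.270, limma adjusted p = 1.00), and *Cbx1*, an HP1 gene, had a log2 fold change of 0.02 (exact permutation p = 0.643, limma adjusted p = 1.00). *Adnp* was at -0.03 without HT 4. Of the 9 other SNF2-type ATPases, 5 were above 0 and 4 below, and none passed. *Hells*, an ATPase of dividing cells, had 333 ± 25.6 in HT and 409 ± 97.8 in WT, a log2 fold change of -0.27 (exact permutation p = 0.0714, limma adjusted p = 1.00). *Smarcad1* had a log2 fold change of -0.07 (exact permutation p = 0.508, limma adjusted p = 1.00). Without HT 4, 1 of these 9 genes passed an unadjusted p of 0.05, against a background of 8.4% of all genes tested. It was *Ino80*, at 0.14 (limma adjusted p = 0.562).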

How the data were processed

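Whole-brain mRNA of 5 HT and 5 WT male mice at postnatal day 3 was sequenced. Per the study's methods and the labels, the authors quantified paired-end reads with Salmon 1.1.0 against GRCm38 with GC bias correction, imported gene values with tximport and divided them by DESeq2 1.30.1 size factors. The deposited signal values are these normalised read counts, 1 per gene and library. Annotation release and low filter are not given in the sources used here. Only 354 of 183872 values above 0 were whole (within 0.001), so tests for counts were not run. Symbols, coordinates and lengths came from GENCODE M21, which held 18431 of 18444 identifiers. Transcript length is that of the longest coding transcript.

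Values were tested as log2(value + 1), a scale that understates changes of low genes, with limma 3.58.1 in R 4.3.3 (limma-trend, robust empirical Bayes, no covariates, two-sided) over 17020 genes with a mean of at least 10. Adjustment followed Benjamini-Hochberg, with a threshold of 0.05. Single values were also tested over the 252 splits of 10 libraries (126 without HT 4). The length and GC correction subtracted a spline trend (4 degrees of freedom for each property) from each library. The workflow was tested on simulated data. Precision was taken from the spread between mice, since counting error was not modelled. Members, gene lists and the rule for named genes (all members, *Arid1b*, and of each partner list the 2 smallest p) were chosen with earlier results of these data known.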

Additional observations from a re-analysis of the deposited data

Results flagged for a closer look

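Of 24 groups of 5 libraries checked for a library far from the others, 3 held one, where chance gives 1.2. The measure is the gap of the extreme library to its nearest neighbour divided by the range of the group, with a critical value of 0.71 for 5 libraries. *Chd2* in HT reached 0.899, because HT 2 stood at 2750 and the next library at 2203. *Smarca5* in WT reached 0.770, because WT 5 stood at 1949 and the next library at 2187. *Arid1b* in HT reached 0.735, because HT 4 stood at 1505 and the next library at 2142. *Chd2* without HT 2 had a log2 fold change of -0.02, and *Smarca5* without WT 5 one of -0.16.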

How the results depend on the processing

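No alternative (23 were run) brought any of the 10 genes or of their partners past an adjusted p of 0.05. Other pseudocounts, equal totals and upper-quartile scaling changed no direction of the 10 genes. Other filters on low values and no robust step do not enter the log2 fold change, so they could not change a direction. TMM scaling was not run, since it needs counts. The number of all genes past the threshold was 0, and became 2 with sample weights, 1 with the length and GC trend removed, 2 with that and HT 4 left out, 7 with a replicate block and HT 4 left out, 1 with a replicate block and the trend removed, a setting added after the data were seen, and 0 to 2 with single libraries left out. The median log2 fold change of the 10 genes, -0.064, became -0.0030 with sample weights, -0.032 with the trend removed with or without a replicate block, -0.00060 with the trend removed and HT 4 left out, 0.024 with a replicate block and HT 4 left out, and -0.093 to 0.022 with single libraries left out. The number of the 10 genes without overlap was 0, and became 2 with the trend removed and HT 4 left out, where 2.74% of all genes did not overlap, and 0 to 1 with single libraries left out, where 0.917% to 2.96% of all genes did not overlap. The number with an unadjusted p under 0.05 was 1 (3.41% of all genes), and became 0 with upper-quartile scaling (3.21% of all genes), 2 with sample weights (7.52%), 0 with the trend removed (4.65%), 3 with that and HT 4 left out (7.95%), 2 with a replicate block and HT 4 left out (10.1%), 0 with a replicate block and the trend removed (4.8%), and 0 to 1 with single libraries left out (2.63% to 8.4%).

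Directions that turned were those of *Chd1* (0.0057 with the trend removed and HT 4 left out, 0.088 with a replicate block and HT 4 left out, -0.13 to 0.039 with single libraries left out), *Chd2* (-0.025 to 0.088 with single libraries left out), *Chd3* (0.012 with sample weights, 0.012 with the trend removed with or without a replicate block, 0.0062 with a replicate block and HT 4 left out, -0.040 to 0.0044 with single libraries left out), *Chd6* (0.00080, 0.049, and -0.16 to 0.052 in the settings named for *Chd1*) and *Chd8* (0.038 with sample weights, and 0.036, 0.074, and -0.084 to 0.073 in the settings named for *Chd1*). The cause was not tested. Replicate numbers are shared between the groups. The labels do not say which pups were littermates, so the numbers were not taken to pair mice. Deviations of libraries with the same number correlated at 0.0911, 0.0843, 0.0815, -0.104 and 0.0926, which does not decide whether the numbers pair mice. For 4 of the 5 HT libraries (all but HT 4) the WT library that correlated best was the one with the same number, a hint from the data and not from the design. With the replicate block alone, 0 genes passed the threshold and 1 of the 10 had an unadjusted p under 0.05 (*Smarca5*, limma adjusted p = 1.00). Each block holds 1 HT and 1 WT library, so with all libraries the block cannot change a log2 fold change or its direction.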
